A study of Mus musculus with 18 samples.

Results

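MYC regions between genes are stretches of the mouse genome where MYC chromatin immunoprecipitation gave a peak away from every annotated gene end and outside every protein-coding gene. Overlapping peaks of 9 MYC peak lists were joined into 4775 regions, and a region was kept when its summit (the median position of the highest point of its peaks) lay outside all coding gene spans and over 1 kb from each end of any gene, coding or noncoding. This left 478 regions, 10.01% of all. The choice used position alone, so the number of libraries, the folds and the genotypes are free of it. The other regions had their summit at a coding gene end (2926), inside a coding gene (1231) or at the end of a noncoding gene only (140).

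The libraries came from frozen liver tumours of FVB mice with LAP-tta and TRE-MYC, in which a tetracycline-regulated activator under a liver promoter drives a MYC transgene once doxycycline is withdrawn. All 3 groups carry both transgenes and differ in Arid1a, which encodes an AT-rich interaction domain protein of SWI/SNF, a complex that moves nucleosomes. WT mice have floxed Arid1a alleles (Arid1aflfl) and no Cre, Het mice 1 floxed and 1 intact allele (Arid1afl/+) with Alb-cre, and Homo mice the floxed pair (Arid1afl/fl) with Alb-cre, which acts in cells that express albumin. Ages were about 55, 70 and 100 days, tumours being taken at death, so age and Cre cannot be told apart from genotype. Each group had 3 MYC libraries and 3 input libraries, and only the MYC libraries had a peak list used here. Whether the libraries of a group stem from different mice is not stated, so each p-value reflects the spread among these libraries alone, and that spread may be technical. Peak lists measure no expression, so the tissue label was not checked against marker genes. In bulk tumour chromatin, fewer cells with MYC at a region and weaker binding in each cell cannot be told apart.

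MYC is a basic helix-loop-helix leucine zipper transcription factor that binds DNA as a pair with MAX, preferring the E-box CACGTG. It is best known at promoters of genes for ribosome production, metabolism and cell growth, and at high abundance it also occupies weaker sites and distal enhancers. A region between genes may be an enhancer or an unannotated promoter, and a peak list alone does not say which.

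The E-box itself could be read at few regions, because sequence was at hand for promoter windows only. RefSeq promoter windows of GRCm38.p6, each reaching from 250 bases before to 50 bases after an annotated start, overlapped 3 of the 478 regions. Of these, the window of Gm40008 is shown because it carries MYC's motif more often than any other gene's window. It lies on chromosome 2, at an internal start of this long noncoding RNA gene, chr2:172294593-172294892 on the minus strand, with each CACGTG in capitals.

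Gm40008 window: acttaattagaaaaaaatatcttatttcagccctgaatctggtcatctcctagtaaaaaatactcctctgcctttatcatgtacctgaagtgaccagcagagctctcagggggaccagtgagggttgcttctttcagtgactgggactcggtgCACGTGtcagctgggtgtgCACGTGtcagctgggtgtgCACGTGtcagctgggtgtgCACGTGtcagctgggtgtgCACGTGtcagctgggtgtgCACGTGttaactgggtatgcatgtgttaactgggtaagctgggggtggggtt

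CACGTG, which reads the same on both strands, stood 6 times in this window, with starts every 19 bases. Among 32817 RefSeq windows of 300 bases, 2346 (7.15%) held CACGTG at least once, and Gm40008 was the only gene with 6 copies in a window. The array runs from base 172294639 to base 172294739 and spans the summit of the region at 172294690. That region (chromosome 2, 172294557 to 172294837, inside the Gm40008 span, 43.6 kb beyond the 3′ end of Mc3r, a melanocortin receptor gene) had a peak in 5 libraries. The authors' fold is the ratio of scaled reads at the summit to local background, with 1 added to each. At this region it was 8.24 and 7.76 in WT replicates 2 and 3, and 10.7, 5.14 and 9.06 in Het replicates 1 to 3. No Homo library and not WT replicate 1 listed it. The windows of Gm33582 and Gm33195 at the other 2 regions hold no CACGTG, which says only that these letters are not in those windows.

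A second set of sequences belongs to the region pair with the best known neighbour. The miR-17 cluster on chromosome 14 is a textbook MYC target whose microRNAs repress messages that match their seed, bases 2 to 8. Mature sequences from RefSeq are shown with the seed in capitals, grouped by seed.

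mmu-miR-17-5p: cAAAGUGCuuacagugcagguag
mmu-miR-20a-5p: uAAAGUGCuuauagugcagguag
mmu-miR-18a-5p: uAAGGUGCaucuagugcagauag
mmu-miR-19a-3p: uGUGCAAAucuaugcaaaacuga
mmu-miR-19b-3p: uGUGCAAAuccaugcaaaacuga
mmu-miR-92a-3p: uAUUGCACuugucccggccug

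miR-17-5p and miR-20a-5p share 1 seed, and miR-19a-3p and miR-19b-3p another. Of 3 regions before this cluster, the closest (115042005 to 115042643) had its summit 1299 bp from Mir17, and the farthest (115040222 to 115041170) 3044 bp. Both had a peak in 7 libraries: WT replicates 2 and 3, every Het library, and Homo replicates 1 and 3. At the closest region the folds were 16.1 and 27.9 in WT, 18.8, 12.6 and 6.77 in Het, and 10.7 and 14.2 in Homo. At the farthest they were 13.0 and 8.93 in WT, 8.91, 9.48 and 5.89 in Het, and 5.35 and 5.004 in Homo. The middle region was in WT replicate 3 alone. By position the nearest coding gene is Gpc5, a glypican, about 50 kb away, so a nearest coding gene need not be the gene that such a region serves. The microRNAs themselves were not measured.

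Before the results by genotype, 2 libraries stand apart. WT replicate 1 and Homo replicate 2 had 15.2% and 19.6% of their peaks at coding gene ends, against 43.7% to 64.3% in the other 7. List lengths ran from 51 to 4291 peaks. The reads behind a between-gene peak, solved from the authors' fold and p-value, ran from 19 to 241 at the summit.

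Homo tumours had the fewest MYC peaks between genes on average, but no comparison of genotypes had an adjusted p under 0.05. The lists of WT replicates 1 to 3 held 33, 188 and 369 such peaks, those of Het 161, 169 and 60, and those of Homo 13, 16 and 42. Every Homo list was thus below every Het list, while WT replicate 1 lay inside the Homo range. Geometric means were 131.8 in WT, 117.8 in Het and 20.6 in Homo (n = 3 each). The Homo mean was 6.4-fold below WT (two-sided exact permutation p = 0.2, Benjamini-Hochberg adjusted p = 0.48 over 12 tests) and 5.72-fold below Het (exact p = 0.1, the smallest that this design allows, adjusted p = 0.364). Het and WT differed 1.12-fold (exact permutation p = 0.8, adjusted p = 0.873), with Het the higher once WT replicate 2, WT replicate 3 or Het replicate 3 was left out. Without WT replicate 1 the exact permutation p over 3 genotypes went from 0.121 to 0.0179 (adjusted p = 0.0714). On the log10 scale the difference between Homo and WT, -0.81 over all libraries, was -1.11 without WT replicate 1 and -0.58 without WT replicate 3.

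As a share of its own list, the between-gene class tended to be larger in shorter lists. Lists of 1567 peaks or more had 8.6% to 12%, and lists of 378 peaks or fewer 11.6% to 35.9%. The relation to list length was not tested. The share was 35.9%, 12% and 8.6% in WT, 9.40%, 9.04% and 15.9% in Het, and 11.6%, 31.4% and 13.9% in Homo. The 2 high values belong to WT replicate 1 (exact Clopper-Pearson 95% interval 26.1% to 46.5%) and Homo replicate 2 (19.1% to 45.9%), the libraries with few gene-end peaks, and these intervals cover counting error only. Group means were 18.8% ± 14.9 (SD, n = 3) in WT, 11.4% ± 3.84 in Het and 18.9% ± 10.8 in Homo. None of the 4 exact permutation tests on the share had an adjusted p under 0.6. Homo minus WT was 0.12 percentage points and turned negative without WT replicate 2, WT replicate 3 or Homo replicate 2; Het minus WT was -7.38 and turned to 1.14 without WT replicate 1.

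**Figure D1:**
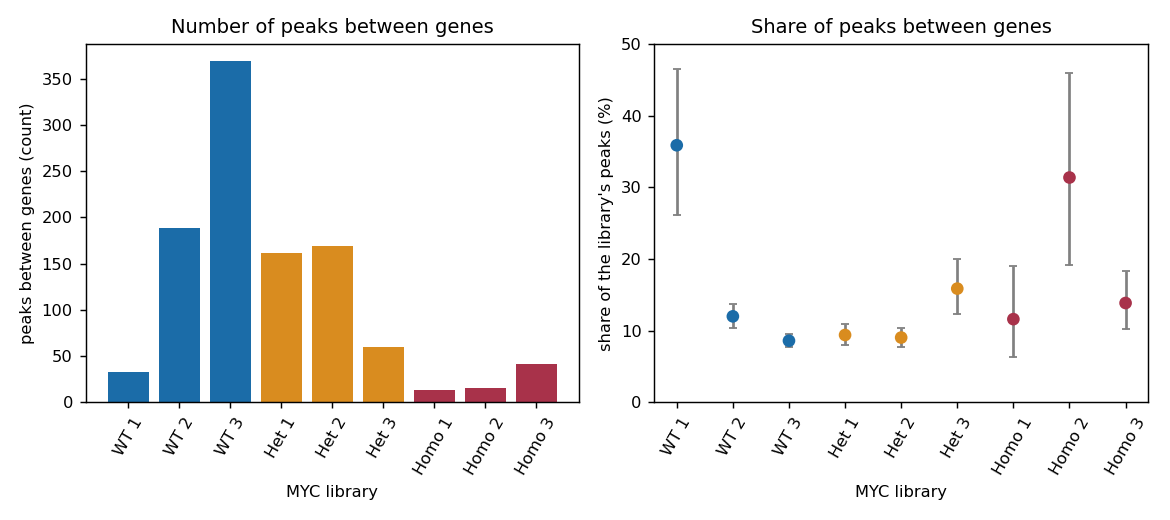
Bars on the left give the number of MYC peaks between genes in each library's list, and points on the right give that number as a percent of the list, with exact 95% binomial intervals. The number ran from 13 to 369, with the 3 Homo libraries at 13 to 42; the share was 8.6% to 15.9% except in WT replicate 1 (35.9%) and Homo replicate 2 (31.4%).

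Most regions between genes were seen once. A single library gave 260 of the 478, and 174 of those (66.9%) were in WT replicate 3, the longest list. Over all regions WT replicate 3 gave 2020 of the 2422 seen once (83.4%). Regions rebuilt without that library numbered 306 between genes. A peak in 2 or more libraries was found at 218 regions (45.6%, against 49.3% of all 4775 regions). At the other end, 21 regions (4.39%) had a peak in at least 7 libraries, against 1.86% of all regions, and 5 (1.05%) in all 9, against 0.335%. Regions at noncoding gene ends had 3.57% in at least 7 libraries and 1.43% in all 9, so these shares were not particular to regions between genes. The between-gene class held fewer regions of 3 or 4 libraries than all other places together and more of each other number. Every between-gene region of a Homo list was also in a list of another library, 13 of 13, 16 of 16 and 42 of 42, and so were 30 of the 31 between-gene regions of WT replicate 1. This was nearly so for regions at any place. Among all 4775 regions, 1 was in Homo replicate 1 alone, 0 in Homo replicate 2 or Homo replicate 3 alone, and 1 in WT replicate 1 alone.

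**Figure D2:**
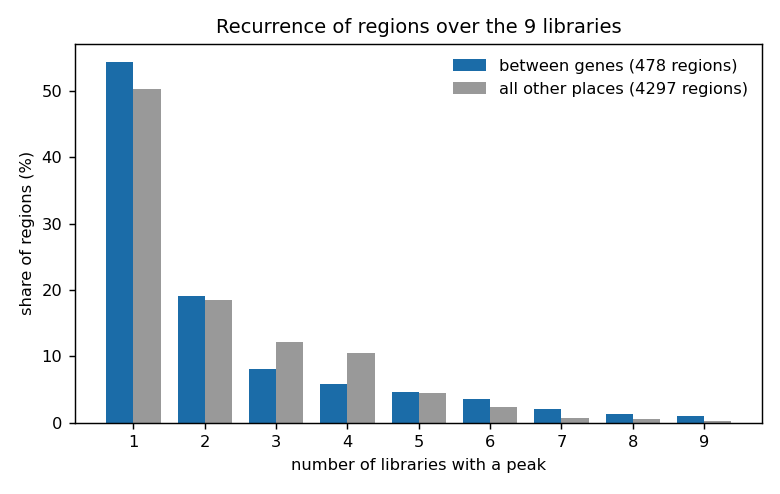
Bars give the percent of regions with a peak in exactly 1 to 9 of the 9 libraries, for the 478 regions between genes and the 4297 regions at all other places. The between-gene bars are the lower ones at 3 and 4 libraries (8.16% against 12.2% and 5.86% against 10.5%) and the higher ones at every other number, from 54.4% against 50.3% at 1 library to 1.05% against 0.256% at 9.

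The 5 regions present in every library were strong peaks in nearly all of them. The region 7.75 kb upstream of Cbx7 (chromosome 15, 79978459 to 79979222), between this Polycomb subunit gene and the growth factor gene Pdgfb, had folds of 23.8, 37.9 and 27.2 in WT, 16.7, 32.8 and 30.8 in Het, and 10.8, 11.6 and 14.5 in Homo. It ranked 2nd in the lists of Het replicates 2 and 3 and no lower than 32nd in any list. Folds in Homo lay below those of the other groups, without overlap.

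The region 33.0 kb beyond the 3′ end of Ramp3 (chromosome 11, 6710235 to 6711073), a gene for a partner protein of the calcitonin receptor-like receptor, gave 23.3, 33.2 and 30.2 in WT, 25.8, 26.6 and 18.2 in Het, and 9.42, 11.3 and 11.2 in Homo. Here too no Homo fold reached the lowest of the other groups, and the rank in the list was 4 to 25. The region 3.62 kb upstream of Rgcc (chromosome 14, 79305063 to 79305454), a regulator of the cell cycle, gave 27.3, 21.6 and 34.0 in WT, 23.3, 8.03 and 26.7 in Het, and 16.8, 7.69 and 13.9 in Homo. It was the strongest peak by fold of the lists of WT replicate 1 and Homo replicate 1, yet only the 669th in Het replicate 2, so its Het and Homo folds overlap.

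The region 3.44 kb beyond the 3′ end of Kcnj6 (chromosome 16, 94741072 to 94742140), a potassium channel gene next to the kinase gene Dyrk1a, gave 23.2, 40.6 and 20.2 in WT, 35.5, 14.1 and 19.5 in Het, and 7.01, 13.2 and 20.3 in Homo, and led the lists of Het replicate 1 and Homo replicate 3. The region 88.1 kb from Zfp706 (chromosome 15, 36908659 to 36909276), on the far side of which lies the 14-3-3 gene Ywhaz, gave 12.5, 28.9 and 14.9 in WT, 6.74, 34.2 and 9.12 in Het, and 9.15, 18.7 and 15.5 in Homo, and led the list of Het replicate 2. In both of these the groups overlap. For comparison, regions of 7 or more libraries at other places had median folds of 7.95, 11.3 and 14.8 in WT, 11.2, 12.2 and 7.27 in Het, and 6.79, 7.75 and 7.98 in Homo. Between genes these medians were 14.8, 21.1 and 19.7 in WT, 18.4, 13.8 and 13.3 in Het, and 9.15, 9.91 and 10.5 in Homo. There the Homo medians lay below all of the others. At other places the groups overlapped, with Homo replicate 3 (7.98) above WT replicate 1 (7.95) and Het replicate 3 (7.27). Each median covers only the peaks that its list holds. Folds are the authors' values within a list and move with its depth, so their differences between libraries were not tested.

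Another 6 regions had a peak in 8 libraries, and all 6 lacked it in Homo replicate 1 only. Their nearest coding genes are Efnb2, an ephrin ligand gene (27.8 kb); Rhox9, a homeobox gene of the X chromosome cluster (20.4 kb); Fam76b (141.3 kb); Ctdp1, a phosphatase gene of RNA polymerase II (47.0 kb); and 2 vomeronasal receptor genes, Vmn1r165 and Vmn1r130. Median folds were 12.1 to 15.4. The region 5.32 kb upstream of Camk2b, a calmodulin-dependent kinase gene, had the highest median fold of those in 7 libraries, 21.4, with 20.1, 26.9 and 22.2 in WT, 22.5, 21.4 and 13.2 in Het, and 11.5 in Homo replicate 3.

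Vomeronasal receptor genes, which are pheromone receptors, recur among these neighbours. On chromosome 7, 5 of the 21 regions lie between members of the Vmn1r cluster, from 20639008 to 23187868. Their distances repeat: 29682 bp to Vmn1r107, 29682 bp to Vmn1r155 and 29686.5 bp to Vmn1r165, then 36861 bp to Vmn1r130 and 36867 bp to Vmn1r137, whose region has Gm5891 as its nearest coding gene at 36429 bp. All 5 were in every WT and Het list, in none of Homo replicate 1, in 4 of the list of Homo replicate 2 and in 3 of that of Homo replicate 3. This receptor family lies in duplicated stretches, and reads from near-identical copies can be split between them, so these 5 are uncertain; whether they share sequence was not tested. In each of the 5, the local background was the lowest of the list in at least 5 libraries, which was so for 8 of the 21. Without them 16 regions remain at 7 or more libraries.

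The 21 recurrent regions make up much of the short lists. They account for 17 of the 31 between-gene regions of WT replicate 1, 14 of the 16 of Homo replicate 2 and 9 of the 13 of Homo replicate 1. In the longer lists all 21 were present in WT replicates 2 and 3 and in each Het library, as 5.69% to 35.6% of the between-gene regions. The missing members differ by library. Of the 21, 12 were in WT replicate 1 and not in Homo replicate 1, and 9 of these 12 were also in Homo replicate 2. The 4 that WT replicate 1 lacked, the pair before miR-17 and those near Rps6ka1, the gene of the kinase RSK1 (22.9 kb), and Ptma (1.44 kb), were also absent from Homo replicate 2, and all 4 were in Homo replicates 1 and 3. These 4 were thus missing from both WT replicate 1 and Homo replicate 2, which are of different genotypes.

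**Figure D3:**
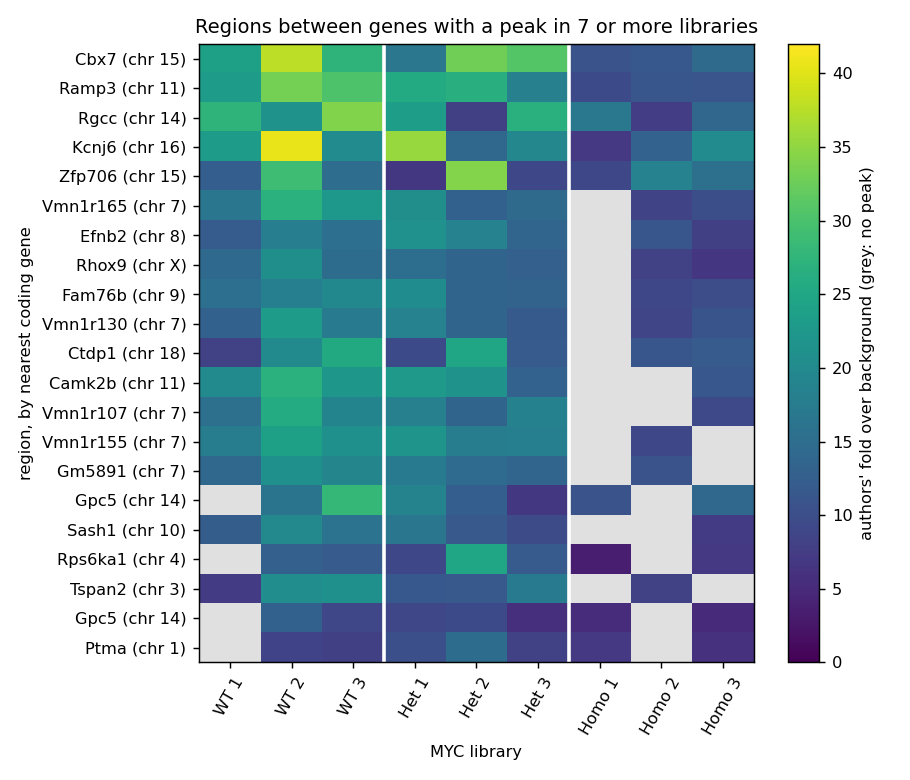
Colour gives the authors' fold of the 21 between-gene regions with a peak in 7 or more libraries, by library and nearest coding gene, and grey marks no peak. The 5 regions at the top have a colour in every column, and grey falls mainly in Homo replicates 1 and 2; the grey squares of WT replicate 1 are also grey in Homo replicate 2.

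Regions between genes lay closer to coding genes than the available sequence does. The median distance from summit to the nearest coding gene was 17.6 kb (quartiles 5.42 and 48.1 kb, range 1.02 to 562.9 kb), whereas the sequence that the rule allows, 58.2% of that between the outermost genes, has a median of 97.3 kb. Within 10 kb of a coding gene lay 38.1% of the regions (exact 95% interval 33.7% to 42.6%) and 13.2% of the allowed sequence. Within 100 kb these shares were 86.4% and 50.6%. A noncoding gene span held 106 regions (22.2%).

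Recurrent regions were not the ones closest to genes. The median was 18.0 kb for regions of 1 library, 11.1 kb for 2 to 4 libraries, 27.8 kb for 5 or more and 29.7 kb for 7 or more. Among those of 1 library 36.5% lay within 10 kb, and among those of 5 or more 25%. Per library the median distance of between-gene peaks ran from 16.9 to 36.9 kb in WT, 17.2 to 30.2 kb in Het and 21.0 to 33.0 kb in Homo, so the groups overlap (sum of squares between 3 genotypes 14.3%, exact permutation p = 0.564, adjusted p = 0.84). As for the limit of 1 kb itself, the 5 regions just beyond it lay 1014 to 1036 bp from a gene end and were in 1 to 3 libraries, and the 5 just within it lay 949 to 979 bp away and were in 1 to 6.

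**Figure D4:**
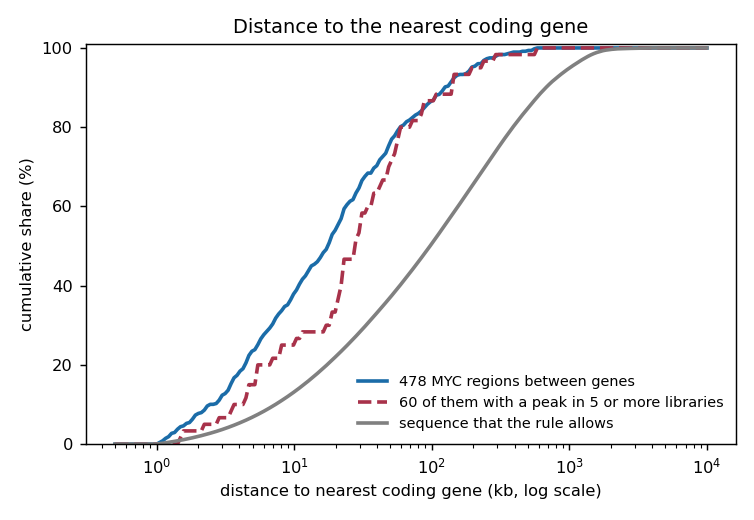
Lines give the cumulative percent of the 478 regions, of the 60 with a peak in 5 or more libraries, and of the allowed sequence, against distance to the nearest coding gene in kb on a log scale. The line of all regions reaches 38.1% at 10 kb where that of the sequence is at 13.2%, and the line of the recurrent regions runs between them from about 5 to 50 kb.

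Within each library's own list, peaks between genes ranked higher by fold than peaks elsewhere. The mean percentile rank by fold was higher in 9 of 9 libraries, by 18.5, 10.7 and 6.44 points in WT, 13.7, 4.96 and 21.4 in Het, and 12.9, 16.5 and 19.4 in Homo. The mean difference was 13.8 points (two-sided exact sign-flip permutation over libraries, p = 0.00391, the smallest it can give, adjusted p = 0.0234). All 3 genotypes show it, and their values overlap. With regions kept only beyond 5 kb from gene ends, the difference was 8.59 points (exact permutation, adjusted p = 0.141). A higher fold rank was not particular to this class. Peaks inside coding genes also had a higher mean rank than peaks at coding gene ends in every library, though a lower one than peaks between genes. Between genes, inside genes and at gene ends the mean ranks were 62.4, 50.8 and 26.2 in WT replicate 1. In WT replicate 3 they were 55.9, 51.3 and 48.7.

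Local background moved with that rank. The median background under between-gene peaks was lower than under other peaks in 9 of 9 libraries, by 0.63 on average on the log2 scale (mean difference -0.63, exact sign-flip permutation p = 0.00391, adjusted p = 0.0234), with -0.14 in WT replicate 3 and -1.0 in Het replicate 3 as the extremes. Under peaks inside coding genes the median background was also lower than at coding gene ends in every library. Many peaks had the lowest background of their list, a larger part between genes in every library but Homo replicate 1 (0% against 2.02%). In WT replicate 1 and Homo replicate 2 that part was 54.55% and 56.25%, against 28.8% and 20% of other peaks. There the between-gene median was this lowest value. Ranked by the number of reads at the summit instead, between-gene peaks were lower than the rest in 8 of 9 libraries (mean -2.84 points, exact permutation p = 0.0273, adjusted p = 0.164). Ranked by −log10 p they were higher in 9 of 9 (mean 8.78 points, exact permutation, adjusted p = 0.0234). In WT replicate 1 they were higher by reads as well, by 3.62 points. The recurrent regions had many reads, with a median at the summit of 116 in WT replicate 2 and 134 in Het replicate 1, where peaks at coding gene ends had 48 and 70. Regions of 7 or more libraries at other places had 94 and 129 in these 2 lists. In WT replicate 3 such regions elsewhere had 104 against 90 between genes, and in Het replicate 2 80.5 against 65.5. Which place had more reads thus varied by library. The fold has the background in its denominator, and the part of background or reads in the rank difference was not tested. With the recurrent regions left out, the fold rank difference fell to 5.76 points (higher in 8 of 9, exact permutation, adjusted p = 0.364) and the background difference to -0.31 (lower in 7 of 9, adjusted p = 0.364 by the same exact permutation). Without WT replicate 1 and Homo replicate 2 both kept their sign in all 7 libraries, at 12.8 points and -0.56. For each, the exact permutation p was 0.0156, the smallest that 7 libraries allow (adjusted p = 0.0938). Peak width did not differ in a resolved way (1.25 percentile points, higher in 6 of 9, exact permutation, adjusted p = 0.84).

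**Figure D5:**
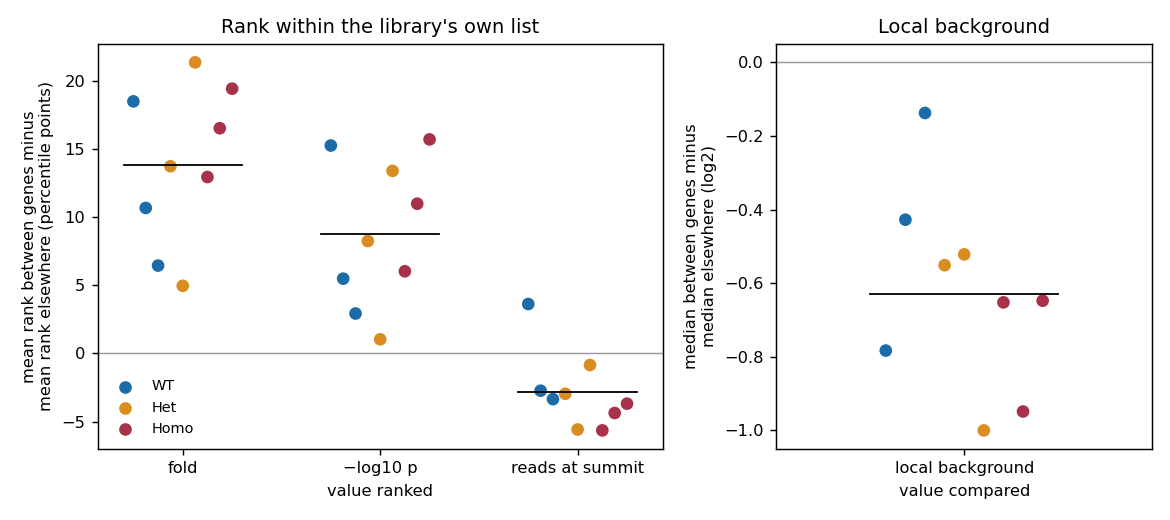
Each point is 1 library, coloured by genotype: on the left the mean percentile rank of between-gene peaks minus that of other peaks, ranked by fold, −log10 p or reads at the summit, and on the right the difference in median log2 local background; lines are means over 9 libraries. All 9 points are above 0 for fold (mean 13.8) and below 0 for background (mean -0.63), and 8 of 9 are below 0 for reads.

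Presence and absence by genotype were read with a region counted for a genotype at 2 or more of its 3 libraries and lacking at 0 of 3. A test of 3 libraries against 3 cannot call any single region. In WT and not in Het stood 24 regions (5.02% of the 478, against 4.13% of all regions), and in Het and not in WT 3 (0.628% against 0.607%). In WT and not in Homo stood 82 (17.2% against 22%), and in Het and not in Homo 58 (12.1% against 18.1%). In Homo and not in WT, and in Homo and not in Het, there were 0, as there were over all regions (0%). These shares are near or below those of all regions. They also rest on the long lists: the count in WT and not in Homo was 13 without WT replicate 2 and 12 without WT replicate 3, that in Het and not in Homo 17 when either Het replicate 1 or Het replicate 2 was left out, and that in WT and not in Het 1 without WT replicate 2, 0 without WT replicate 3 and 38 without Het replicate 1. In Het and not in WT the count was 8 without WT replicate 2, 19 without WT replicate 3 and 0 without Het replicate 1 or Het replicate 2. In Homo and not in Het it was 1 without Het replicate 1.

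A peak in any Homo library was at 49 of the 478 regions (10.25%, against 7.20% of all and 10.7% at noncoding gene ends). Of these, 48 had one in all 3 genotypes (10.04% of the 478, against 7.06% of all). Any WT library had a peak at 431 (90.2% against 93.4%) and any Het library at 238 (49.8% against 51.0%). Regions held in common by 2 genotypes, each at 2 or more libraries, numbered 78 for WT and Het (16.3%, against 18.1% of all regions), 17 for WT and Homo (3.56% against 2.03%) and 16 for Het and Homo (3.35% against 2.01%). These pairs share libraries.

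The firmest absence from Homo was at 6 regions with a peak in every WT and every Het library and in 0 Homo libraries (1.26%, against 0.377% of all regions). Their nearest coding genes are Zfp326 (18.1 kb), Aga, a lysosomal enzyme gene (84.7 kb), Ercc4, a DNA repair nuclease gene (40.6 kb), Gas1, a growth arrest gene (84.1 kb), Trib2, a pseudokinase gene (285.0 kb), and Nmbr, a neuropeptide receptor gene (105.5 kb). At Zfp326 the folds were 11.2, 13.7 and 11.0 in WT and 8.95, 8.87 and 11.4 in Het. At Aga they were 9.96, 20.5 and 12.4 in WT and 11.5, 10.5 and 10.22 in Het. By fold the Aga peak stood 35th of 92 in WT replicate 1 and 273rd of 4291 in WT replicate 3. Absence means no listed peak in Homo lists of 51 to 303 peaks; the signal below the caller's limit was not measured here.

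Few regions separated WT from Het. In WT and not in Het, the leading ones lay near Ifne, an interferon gene (58.5 kb), Map1lc3b, the autophagy gene of LC3B (4.86 kb), Tubg1, gamma-tubulin (7.99 kb), Tomm20, a mitochondrial import receptor gene (121.9 kb), and Hif1a, the oxygen-regulated transcription factor (2.41 kb beyond its 3′ end). Each was in WT replicates 2 and 3, with folds of 3.76 to 10.1, and the Ifne region also in 1 Homo library. Of the regions in Het and not in WT, those near 1700001O22Rik (77.4 kb) and Ube2ql1 (1.71 kb) were each in Het replicates 1 and 2. The 1700001O22Rik region had folds of 9.13 and 7.19, and the Ube2ql1 region 5.77 and 8.30.

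Among genes of the liver, the nearest neighbours included several transcription factors. At least 1 region had its nearest coding gene in the list of liver transcription factors for 7 of 33 genes (21.2%, against 430 of all 21887 coding genes, 1.96%): Cebpa, Cebpb, Foxa2, Klf15, Klf9, Nfib and Rxra. These 8 regions are 1.67% of the 478, and 0.326% of the allowed sequence has a gene of this list as its nearest. Within 50 kb the shares were 2.19% of regions and 0.267% of sequence. Counting only regions of 2 or more libraries, this list gave 4 of 33 genes (12.1%), against 0.941% of all coding genes. The region 5.39 kb upstream of Klf9 had folds of 10.8 and 11.6 in WT, 6.63, 5.36 and 7.45 in Het, and 7.29 in Homo replicate 3. The region 6.67 kb from Nfib was in 5 libraries, with folds of 7.18 and 4.50 in WT, 5.39 and 5.14 in Het and 9.73 in Homo replicate 3. The region 49.4 kb upstream of Rxra, the shared partner of nuclear receptors, was in 3 libraries. Cebpa, the hepatocyte differentiation factor, had a region 1.25 kb upstream and another 22.1 kb beyond it, each in 1 WT and 1 Het library. Cebpb, Foxa2 and Klf15 had 1 region each in a single WT library. The Cebpb peak, with a fold of 2.22, ranked 4290th of 4291 in WT replicate 3.

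The other lists are set beside the same 1.96% of all coding genes. Plasma protein and enzyme genes gave 3 of 33 (9.09%, Cps1 and G6pc among them), cell cycle genes 3 of 22 (13.6%, Ccnd1, Ccne1 and Cdkn1a), clock genes 3 of 17 (17.6%, Bhlhe40, Hlf and Tef) and the nucleotide, polyamine and glycolysis list 3 of 21 (14.3%, Eno1, Hk2 and Slc2a1). Many of these rest on a region in a single library. Counting only regions of 2 or more libraries, these lists gave 2 (6.06%), 2 (9.09%), 1 (5.88%) and 1 (4.76%), against 0.941% of all coding genes. Ribosome and translation genes, the best known promoter targets of MYC, gave 1 of 34 (Eef2, in 1 library). SWI/SNF subunits gave 1 of 18 (Arid1b, in 1 library) and fetal liver genes 1 of 17. The fetal one is Afp, alpha-fetoprotein, with a region 2.23 kb upstream, on the side of Alb, at folds of 7.77 in WT replicate 3, 8.08 in Het replicate 2 and 9.40 in Homo replicate 3. Cdkn1a, the cell cycle inhibitor p21, had a region 3.66 kb beyond its 3′ end in 4 libraries with folds of 4.31 to 8.55. Hk2, the hexokinase of glycolytic tumours, had 1 in 3 libraries (22.1 kb), and Hlf, a clock output factor, 1 in 3 libraries (27.2 kb). MYC network genes gave 0 of 13, EMT and metastasis genes 0 of 21, immune cell genes 0 of 18, and endothelial, stellate and bile duct genes 1 of 21 (Cdh5).

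Close to the 1 kb limit and in at least 4 libraries stood regions of growth control genes. Id2, an inhibitor of helix-loop-helix factors, had 1 at 1.27 kb upstream with folds of 9.32 and 12.6 in WT and 9.48 and 8.86 in Het. Foxo3, a forkhead transcription factor, had 1 at 1.53 kb upstream in 5 libraries, with folds of 4.79 to 8.50, including Homo replicate 3. At the far end, the region 562.9 kb from Adgra3, an adhesion receptor gene, with Ppargc1a on the other side, was in 3 WT and 2 Het libraries at folds of 9.50 to 15.3, in a list order of 35th in WT replicate 1 and 120th in WT replicate 3.

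Some genes had several regions. Ptma, the prothymosin gene and a long-known MYC target, had 3 upstream at 1.44, 16.9 and 22.3 kb, in 7, 5 and 5 libraries. The nearest of these gave 8.42 and 7.95 in WT, 10.24, 14.9 and 8.11 in Het, and 7.03 and 5.96 in Homo, so both Homo folds lay below all of the others. P4ha1, a collagen hydroxylase gene, had 3 upstream within 3.92 kb, of which 1 was in 5 libraries. A run of 5 regions over 59.6 kb upstream of Cwc22, a splicing factor gene, was of another kind. All 5 were in Het replicate 3 alone, with 21 to 26 reads at the summit. Their local background was the lowest of that list. Id2 and Irf2bp2 were nearest to 3 regions each, and Sash1 and Hes1 to 2 each.

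By chromosome, the X held 3 regions (0.628%) with 7.60% of the allowed sequence, 2 of them in 5 or more libraries, near Rhox9 and Hprt. Chromosome 7 held the most, 40 regions (8.37%) with 5.01% of the sequence, 8 of them in 5 or more libraries, a count that includes the 5 vomeronasal regions. The 5 regions on the Y were each in 1 library.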

How the data were processed

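MYC peak lists of 9 mouse liver tumour libraries (3 per Arid1a genotype) were used as deposited; the 9 input libraries were not analysed here. The submitters' processing notes name mm10, MACS2 2.0.10.20131216, Bowtie2 2.2.3, HOMER and Picard; the peak threshold is not given in these sources. Each library has its own list, so the authors called peaks per library. The deposited values are the authors' fold (a ratio over background at the summit), −log10 p, −log10 q, a score and the summit offset. Folds describe or rank peaks within a list.

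Peaks that overlap by at least 1 bp were joined, and summits were placed against RefSeq gene spans of GRCm38.p6 (21887 coding and 49943 genes of any biotype). That gene table has no strand, and upstream or downstream is given only where a promoter window gave it. Allowed sequence was measured on a grid of 100 bases. Reads at the summit and local background were solved from the authors' fold and −log10 p in the form MACS2 uses; exactly 1 whole number of reads solved 99.9% of 10376 peaks, and the method was tested on simulated data. Library depth itself is unknown, and list length and summit reads set the precision.

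Libraries were compared with exact permutation tests (two-sided), the within-list ones by sign-flip, with Benjamini-Hochberg adjustment over 12 tests. With 3 libraries against 3 the smallest p is 0.1. Replicate numbers were not used as pairs. Alternatives were stricter peak limits, other gene-end limits, biotypes, joining and summit rules, the replicate block, and each library left out; 3 other rankings or subsets for the fold rank and 1 for the background were added after the data were seen. Members, lists and tests were chosen with earlier results of these data known. Regions were named by rule: those in the most libraries, with the highest median fold, leading each pair of genotypes, nearest to and farthest from genes, near listed genes, and in runs; listed genes with regions in fewer than 3 libraries, Nmbr, Mc3r, Hprt and the region with the E-box array were named after their values were seen. Some regions that the rule named are not reported here. Motifs could be sought only in promoter windows, since no genome sequence was used. Work was done with Python 3.11.15, pandas 2.3.3, NumPy 2.4.6, SciPy 1.17.1 and matplotlib 3.10.9.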

Additional observations from a re-analysis of the deposited data

How the results depend on the processing

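Over 22 settings, 349 of 391 recomputed values kept their direction, their side of the threshold and, for counts, their size within 1.5 times; 26 moved, 11 changed sign and 5 lost their call. Beyond 5 kb from gene ends 277 regions remained, 19.9% of them within 10 kb of a coding gene. There the fold rank difference was 8.59 points (exact permutation, adjusted p = 0.141), the width rank difference -4.94, the share of Homo minus WT -3.96, and the counts in WT not Het 12, Het not WT 1, WT not Homo 48 and Het not Homo 33. Het not WT was 5 with folds of at least 5, 5 with noncoding genes ignored and 7 with summits joined within 200 bp; Homo not WT was 1 with folds of at least 5; WT not Het was 14 when spans of every biotype barred a region. Without both WT replicate 1 and Homo replicate 2, the share of Het minus WT was 1.14, the fold rank difference 12.8 points and the background difference -0.56. For the last 2, the exact permutation p was 0.0156, the smallest that 7 libraries allow (adjusted p = 0.0938 for both). Alternatives added after the data were seen gave a rank difference of -2.84 by summit reads, and 5.76 (fold rank) and -0.31 (background) without regions of 7 or more libraries. Apart from the limit set by 7 libraries, the causes of these changes were not tested.

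Leaving out 1 library at a time, the log10 number of Het minus WT ran from -0.35 to 0.17, the share of Het minus WT from -12.5 to 1.14 and that of Homo minus WT from -6.09 to 8.65. Counts ran from 0 to 38 for WT not Het, 0 to 19 for Het not WT, 12 to 105 for WT not Homo, 17 to 81 for Het not Homo, 0 to 1 for Homo not Het and 306 to 478 for all regions, and the share in 2 or more libraries from 38.9% to 47.4%. Fold rank and background kept an adjusted p of 0.0469 (exact permutation) with any 1 library left out. Replicate numbers do not pair the libraries: 1 of 9 same-numbered pairs correlated above 0.1 (-0.22 to 0.14). With the replicate block the number of Homo minus WT stayed at -0.81 on the log10 scale (exact permutation, adjusted p = 0.75). Sequencing depth is unknown, and the short Homo lists limit what could be seen there.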
